A study of Mus musculus with 4 samples.

Results

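Periostin (Postn), TGF-β-induced protein (Tgfbi), tenascin C (Tnc), tenascin XB (Tnxb), osteopontin (Spp1), Sparc, Sparcl1, Smoc1 and Smoc2 encode matricellular proteins. The 9 genes were chosen by family, as fasciclin-domain, tenascin, osteopontin and SPARC-related genes, and every probe set annotated to 1 of these symbols was taken. The annotation listed 15 such probe sets for 8 of the genes, out of 18194 genes with a probe set of their own. Spp1 was not analysed here. Of the 15 probe sets, 12 from 7 genes reached an intensity of 50 on at least 2 arrays and were tested, and 11 of these did so on all 4. The 3 others were a dim probe set each of Tnc and Sparc, and the single probe set of Smoc1.

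The cells were Sca-1 cells, sorted with magnetic beads for the surface protein Sca-1, which marks resident progenitor cells among others in the adult heart. Cyc cells came from double-transgenic αMHC-CyclinT1/Gαq overexpressing mice with heart failure, and Wt cells from healthy wildtype littermates, all on the FVB background and 6 weeks old. Both transgenes are driven by the α-MHC promoter, which is active in cardiomyocytes. Each array held RNA of freshly isolated cells pooled from 2 to 3 mice, from 2 independent experiments. The pools are numbered 1 and 2 in each genotype, and Cyc and Wt pools of the same number are read here as 1 experiment, although no label states that they were handled together. All within-experiment differences and the fits with the experiment as a block rest on this reading.

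Matricellular proteins are secreted into the extracellular matrix, where they change how cells attach and signal more than they bear load. Periostin is made by activated fibroblasts of the injured heart, binds collagen and integrins, and is induced by TGF-β. Tenascin C appears during wound healing, tenascin X stabilizes collagen fibrils, and SPARC binds collagen and helps its deposition. Sparcl1 and the Smoc proteins share the calcium-binding module of SPARC, and Smoc proteins also act on BMP and growth factor signals.

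The sequences upstream of Postn and Tgfbi are shown because these were the member genes with a probe set called higher in Cyc cells. Each line gives the 250 bases before a transcription start of RefSeq in build GRCm38.p6, on the plus strand, chr3:54360857-54361106 for Postn and chr13:56609336-56609585 for Tgfbi. Capitals mark a match to the TATA box letters TATAA, and no capitals mean no match to any motif searched.
Postn: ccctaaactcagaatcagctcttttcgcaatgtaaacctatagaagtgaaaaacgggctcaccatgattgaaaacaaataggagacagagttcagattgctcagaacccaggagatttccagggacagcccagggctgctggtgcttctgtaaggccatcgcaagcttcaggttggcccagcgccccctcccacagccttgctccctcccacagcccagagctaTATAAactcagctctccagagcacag
Tgfbi: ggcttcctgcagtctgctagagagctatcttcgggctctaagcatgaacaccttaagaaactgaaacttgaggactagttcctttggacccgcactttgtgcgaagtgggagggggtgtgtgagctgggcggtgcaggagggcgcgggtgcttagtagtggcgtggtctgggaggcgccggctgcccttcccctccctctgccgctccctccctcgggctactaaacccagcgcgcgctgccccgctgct
The Postn window holds TATAA with its first base at position -26, counted back from the start. Neither window holds the AP-1 letters TGANTCA or the TEAD letters GGAATG on either strand. Among 32851 windows of this length, 22.8% hold TATAA, 6.75% the AP-1 letters and 12.6% the TEAD letters, each counted on either strand. A second RefSeq start of Postn has a window without any of the 3 motifs. The G and C content was 52.0% in the printed Postn window and 62.4% in that of Tgfbi. Of the other analysed genes Tnc, Tnxb and Sparc have a window, and among these the AP-1 letters occur in that of Tnxb alone, at position -55.

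The pools were first checked by the genes of the transgene and the sort. A Gnaq probe set had intensities of 723.6 and 492.3 in Cyc pools 1 and 2 and of 22.7 and 4.1 in Wt pools 1 and 2, which is at least 11.9-fold higher, while the other 6 probe sets annotated to Gnaq overlapped between the groups. Ly6a, the gene of Sca-1, did not pass the thresholds, with a log2 fold change of 0.03 and a 95% confidence interval from -0.67 to 0.73 (limma). Median intensities of the tested probe sets were 197.6 to 280.5 over the 4 pools. The experiments differed in the control transcripts added before labelling, whose median intensity was 213.9 to 250.1 in experiment 1 and -1.1 to 0.6 in experiment 2. Genotypes are therefore also set side by side within each experiment, as log2 differences of 1 Cyc and 1 Wt pool that have no test.

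A probe set was called changed where it differed at least 2-fold with a limma unadjusted p under 0.05, both on log2(intensity + 16). By this rule 2 of the 12 tested member probe sets, 1 of Postn and 1 of Tgfbi, were called higher in Cyc cells, none was called lower, and 10 passed in neither direction. Over all 20680 tested probe sets, 0.735% were called higher and 0.116% lower. With the experiment as a block the calls were again 2 and 0 of the 12, against 0.924% and 0.227% of all. Every adjusted p of the unblocked fit was 1, for the members and for all other probe sets, so no call survives correction for multiple tests. An unadjusted p under 0.05 was reached by 2 of the 12 member probe sets without the block, against 1.99% of all tested, and by 5 with it, against 6.98% of all. Leaving out 1 pool gave log2 fold changes from 1.54 to 2.26 at Postn and from 0.59 to 1.54 at the called Tgfbi probe set.

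The Cyc and Wt pools did not overlap, with Cyc higher, at 7 of the 12 member probe sets, against 15.1% of all tested. None of the 12 had both Cyc pools below both Wt pools, against 8.23% of all. The 7 were those of Postn, the 4 of Tgfbi, 1 of Sparc and that of Sparcl1. Probe sets of 1 gene read the same transcripts and are not independent. In bulk samples a change in the share of a cell type and a change in RNA per cell cannot be told apart.

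**Figure D1:**
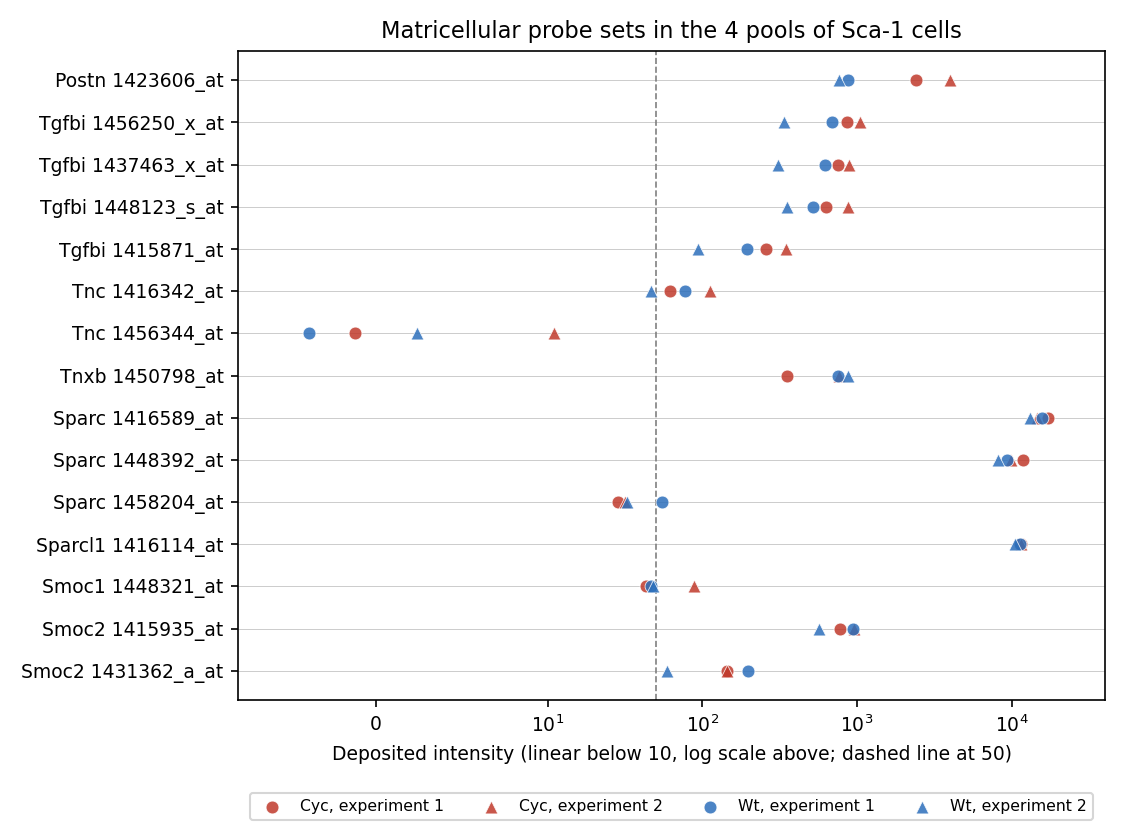
Deposited intensity of the 15 matricellular probe sets (rows) in each pool, on an axis that is linear below 10 and logarithmic above. Red marks Cyc and blue Wt pools, circles experiment 1 and triangles experiment 2, and the dashed line is at 50. Both red points of Postn, at 2404.9 and 3992.2, lie to the right of both blue points, at 881.1 and 761.6, whereas the points of Sparcl1 lie almost on each other.

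Postn was read by 1 probe set, 1423606_at. Its intensity was 2404.9 in Cyc pool 1 and 3992.2 in Cyc pool 2, against 881.1 in Wt pool 1 and 761.6 in Wt pool 2. The Wt pools were close together, the Cyc pools were further apart, and the groups did not overlap. Mean intensities were 3199 ± 1122 in Cyc and 821 ± 84.5 in Wt cells (SD, n = 2 pools each). Periostin mRNA was thus 2.73-fold higher in Cyc than in Wt cells in experiment 1 and 5.24-fold higher in experiment 2. Over both experiments the log2 fold change was 1.90 (standard error 0.33, 95% confidence interval 1.03 to 2.77, limma unadjusted p = 0.00279, adjusted p = 1), a 3.73-fold rise. Of all tested probe sets, 0.14% had a higher log2 fold change. With the experiment as a block the interval was 1.21 to 2.59 and the limma adjusted p was 0.386. Leaving out any 1 pool gave log2 fold changes from 1.54 to 2.26.

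Tgfbi encodes a secreted fasciclin-domain protein related to periostin, which TGF-β induces and which links collagen to integrins. All 4 of its probe sets had both Cyc pools above both Wt pools, but 1 alone passed the thresholds. This was 1415871_at, at 258.9 and 349.6 in Cyc pools 1 and 2 and at 195.3 and 93.2 in Wt pools 1 and 2. The mean was 304 ± 64.1 in Cyc and 144 ± 72.2 in Wt cells (SD, n = 2 pools each). Its log2 fold change was 1.06 (standard error 0.40, 95% confidence interval 0.00 to 2.12, limma unadjusted p = 0.0499, adjusted p = 1). The call lay at the edge of both thresholds, and it was lost without Cyc pool 2, at a log2 fold change of 0.86, and without Wt pool 2, at 0.59.

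The 3 other Tgfbi probe sets pointed the same way. Probe set 1456250_x_at read 868.2 and 1046.5 in Cyc pools 1 and 2 and 684.8 and 337.9 in Wt pools 1 and 2. Probe set 1437463_x_at read 751.0 and 887.0 in Cyc against 620.4 and 308.1 in Wt pools, and 1448123_s_at read 629.4 and 876.0 against 518.5 and 355.0. In all of them Cyc pool 2 was highest and Wt pool 2 lowest. Over the 4 probe sets the log2 fold changes ran from 0.77 to 1.06, with limma unadjusted p from 0.0499 to 0.0813 and, with the experiment as a block, from 0.0255 to 0.0391. The Cyc minus Wt difference of Tgfbi was 0.27 to 0.38 on the log2 scale in experiment 1 and 1.27 to 1.74 in experiment 2.

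**Figure D2:**
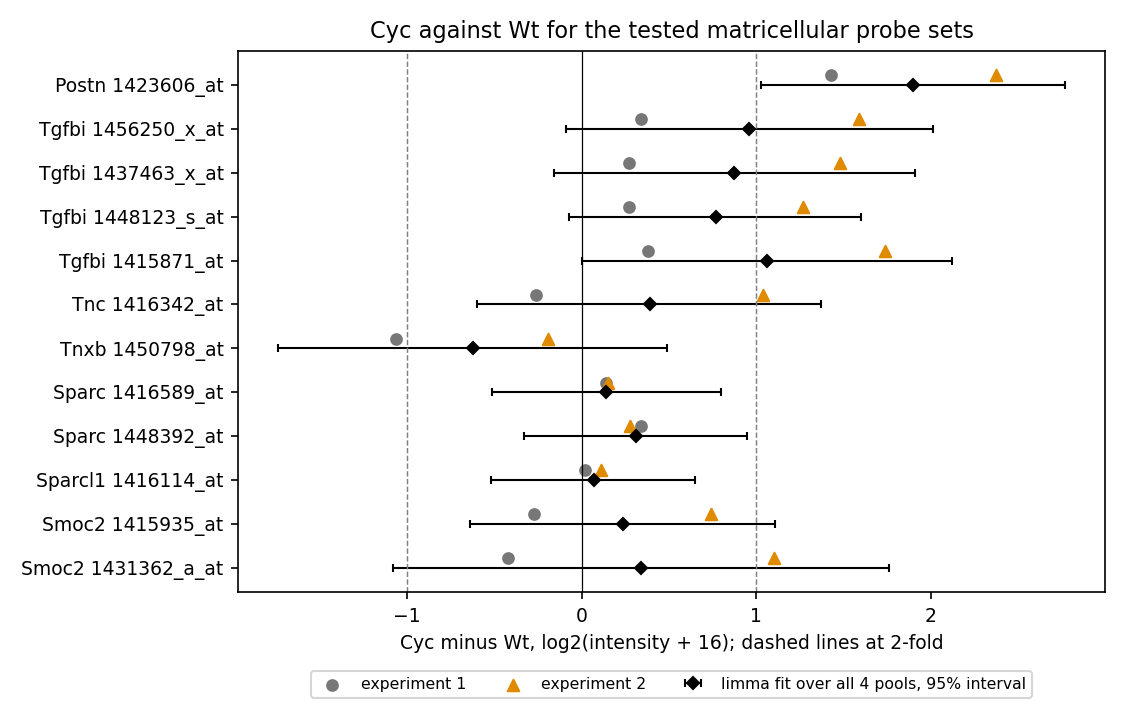
Cyc minus Wt on the log2(intensity + 16) scale for the 12 tested matricellular probe sets. Black diamonds with bars are limma estimates over all 4 pools with 95% confidence intervals, grey circles the difference in experiment 1 and orange triangles that in experiment 2, and dashed lines mark 2-fold. The interval of Postn, 1.03 to 2.77, lies wholly beyond 2-fold, while those of the tenascin and SPARC-related genes include 0.

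Tenascins did not pass the thresholds. Tnc, at probe set 1416342_at, was dim, with 61.4 and 113.0 in Cyc pools 1 and 2 and 76.9 and 46.7 in Wt pools 1 and 2. The groups overlapped, and the sign differed between experiments, with differences of -0.26 in experiment 1 and 1.04 in experiment 2. The fitted log2 fold change of 0.39 had a 95% interval of -0.60 to 1.37 (limma unadjusted p = 0.351). A second Tnc probe set, 1456344_at, stayed between -3.9 and 11.0 in all pools and was not tested.

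Tnxb, read by 1450798_at, was the one member gene lower in Cyc cells in both experiments. Its intensity was 352.7 in Cyc pool 1 and 769.7 in Cyc pool 2, against 750.8 in Wt pool 1 and 880.1 in Wt pool 2. Cyc pool 1 was far below the other 3 pools, and Cyc pool 2 lay between the Wt pools. Cyc pool 1 was the lowest pool at 51% of all tested probe sets. The difference was -1.06 on the log2 scale in experiment 1 and -0.19 in experiment 2. The fitted log2 fold change was -0.62 (95% confidence interval -1.74 to 0.49, limma unadjusted p = 0.207), and the unadjusted p with the experiment as a block was 0.0611. Without Cyc pool 2 it became -1.17 and passed the thresholds, and without Cyc pool 1 it was -0.08, so that its size rested on Cyc pool 1.

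SPARC-related genes did not pass either. Sparc was at 17220.5 and 14526.0 in Cyc pools 1 and 2 and at 15630.6 and 13118.7 in Wt pools 1 and 2 by probe set 1416589_at. At 1448392_at it was at 11773.4 and 9864.8 in Cyc pools against 9323.7 and 8149.8 in Wt pools. Within each experiment the Cyc pool was the higher one at both probe sets, by 0.14 and 0.15 at the first and by 0.34 and 0.28 at the second, on the log2 scale. The pools of experiment 1 exceeded those of experiment 2 in both genotypes. Log2 fold changes were 0.14 (95% confidence interval -0.51 to 0.80) and 0.31 (-0.33 to 0.95) in limma, so that a 2-fold change of intensity lies outside both intervals. The highest values of any probe set were 18821.8 in Cyc pool 1 and 15886.2 in Wt pool 2, so Sparc lay near the top of the arrays. Whether intensity there still follows the amount of mRNA was not tested. The third Sparc probe set, 1458204_at, was dim, at 28.4 to 55.3, and was not tested.

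Sparcl1, an adhesion-modulating relative of Sparc, varied least among the tested member probe sets. Its intensity was 11554.3 and 11443.6 in Cyc pools 1 and 2 and 11384.2 and 10585.6 in Wt pools 1 and 2. The means, 11499 ± 78.3 and 10985 ± 565 (SD, n = 2 pools each), differed by less than the spread of the Wt pools. Its log2 fold change of 0.07 had a 95% interval of -0.52 to 0.65 (limma unadjusted p = 0.777). Sparcl1 too lay in the upper range of the arrays, where the relation of intensity to mRNA was not tested.

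Smoc2 was read by 2 probe sets, and the groups overlapped at both. At 1415935_at it was at 777.4 and 963.8 in Cyc pools 1 and 2 and at 939.4 and 569.7 in Wt pools 1 and 2. At 1431362_a_at it was at 143.7 and 144.1 in the Cyc against 197.0 and 58.8 in the Wt pools. Both were lower in Cyc in experiment 1, by -0.27 and -0.42, and higher in experiment 2, by 0.74 and 1.10, on the log2 scale. The fitted log2 fold changes of 0.24 (95% confidence interval -0.64 to 1.11) and 0.34 (-1.08 to 1.76) leave the direction unsettled, and without Wt pool 2 both were below 0, at -0.12 and -0.41. Smoc1 had intensities of 43.2 and 88.6 in Cyc pools 1 and 2 and of 46.7 and 48.0 in Wt pools 1 and 2, reached 50 on 1 array and was not tested.

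The 2 experiments differed in the size of these differences. Of the 12 tested member probe sets, 8 were higher in Cyc cells in both experiments, 1 was lower in both, and 3 had opposite signs, those of Tnc and Smoc2. Over all tested probe sets these shares were 26.1% higher in both, 29.1% lower in both and 44.7% with opposite signs. In experiment 1 a single member, Postn, was 2-fold higher, against 0.885% of all tested, and 1, Tnxb, was 2-fold lower, against 2.45% of all. In experiment 2, 7 members were 2-fold higher, against 3.26% of all, and 0 were 2-fold lower, against 0.276%. The median difference of the members was 0.20 in experiment 1 and 1.07 in experiment 2, while that of all tested probe sets was -0.10 and 0.06. The fitted median was 0.36 for the members and -0.02 for all.

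Pool by pool, Wt pool 2 was the lowest of the 4 at 11 of the 12 member probe sets, against 16.9% of all tested. Tnxb was the exception, with its highest value in that pool. Cyc pool 2 was the highest at 7 members, against 44.4% of all. Both held at once for 7 members, which are Postn, the 4 probe sets of Tgfbi, the tested one of Tnc and 1 of Smoc2, against 7.34% of all tested. These ranks do not give the size of the differences. At Postn the Cyc pools were far apart, at 2404.9 and 3992.2, and the Wt pools close, at 881.1 and 761.6. At Tgfbi 1456250_x_at the Wt pools were the further apart, at 684.8 and 337.9, against 868.2 and 1046.5 in the Cyc pools.

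**Figure D3:**
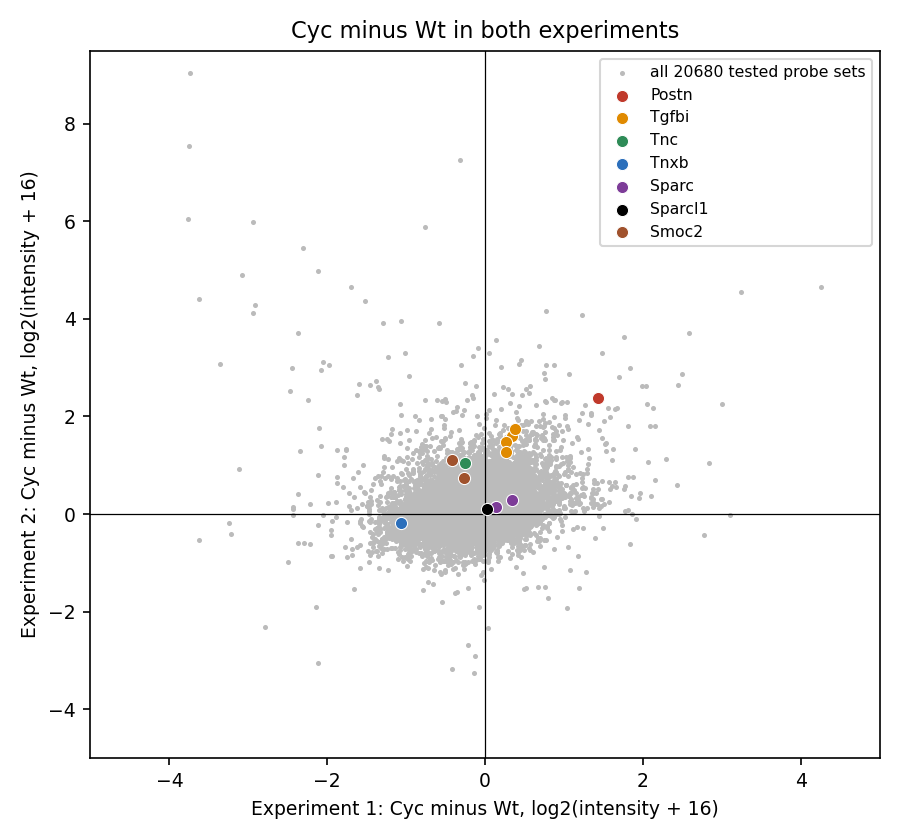
Cyc minus Wt in experiment 1 (horizontal) and experiment 2 (vertical), both in log2(intensity + 16), for all 20680 tested probe sets (grey) and the members (coloured by gene). Postn stands at 1.43 and 2.37, the 4 Tgfbi probe sets stand between 0.27 and 0.38 in experiment 1 and above 1.2 in experiment 2, and Tnxb is the member with both differences below 0.

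Receptors and binding partners of these proteins were read at the probe set of highest mean intensity of each gene. Probe sets annotated to several symbols were left out of this choice. Together with close relatives and TGF-β genes they were 41 genes, of which 40 had a probe set and 26 were tested. Among the 26, 2 were called higher in Cyc cells, 0 lower and 24 in neither direction. Over all 10313 genes read this way, 0.921% were called higher and 0.126% lower. With the experiment as a block 3 of the 26 were called higher and 0 lower. Over all tested probe sets that fit called 0.924% higher and 0.227% lower, and the share over genes was not counted.

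Of 11 integrin and other receptor genes, 8 were tested and none passed, with a median log2 fold change of 0.39. Itgb5, which pairs with αv into a periostin-binding integrin, was at 1083.6 and 1926.8 in Cyc pools 1 and 2 and at 772.6 and 712.5 in Wt pools 1 and 2. Its groups did not overlap, and its log2 fold change of 0.95 (limma unadjusted p = 0.0451) fell short of 2-fold. Itgb1, the β1 chain shared by many matrix receptors, was at 1224.5 and 1764.2 in the Cyc against 1040.1 and 1119.4 in the Wt pools (log2 fold change 0.44). Itgb3, Itgb6 and Itga4 were dim and not tested.

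Among 10 matrix partners and processing enzymes, 9 were tested, Col1a1 and Col5a2 were called higher in Cyc cells, and the median log2 fold change was 0.69. Col5a2, a chain of the collagen V that starts fibrils, was at 2342.9 and 2703.3 in Cyc pools 1 and 2 and at 1379.8 and 835.0 in Wt pools 1 and 2. This is a log2 fold change of 1.22 (standard error 0.33, limma unadjusted p = 0.0156, adjusted p = 1). Col1a1, a collagen I chain, was at 456.1 and 905.5 in the Cyc against 321.3 and 242.5 in the Wt pools, with a log2 fold change of 1.16 (standard error 0.40, limma unadjusted p = 0.0379, adjusted p = 1). Col1a1 and Col5a2 were higher in both experiments, by 0.49 and 0.76 in experiment 1 and by 1.83 and 1.68 in experiment 2. Without Wt pool 2 neither passed, at 0.97 for Col1a1 and 0.86 for Col5a2, and Col1a1 was also lost without Cyc pool 2, at 0.68, and without Wt pool 1, where its unadjusted p in limma was 0.0645. Col3a1, the collagen III chain, and Col1a2, the partner chain of collagen I, had log2 fold changes of 0.44 and 0.69 and did not pass. Mmp3, a matrix protease, was the gene added by the block, at 59.8 and 120.8 in Cyc and 44.0 and 8.8 in Wt pools, with a limma unadjusted p of 0.033 in the blocked and 0.0539 in the unblocked fit.

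TGF-β ligands, receptors and regulators were tested at 7 of 8 genes, with none called and a median log2 fold change of 0.00. Tgfbr2, the type II receptor, was at 2837.2 and 3683.0 in Cyc pools 1 and 2 and at 3154.6 and 3305.2 in Wt pools 1 and 2, a log2 fold change of 0.00. Skil, a nuclear repressor of SMAD signaling, had a log2 fold change of -0.12.

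Close relatives were dim for the most part. The tenascin genes Tnn and Tnr and the bone phosphoprotein genes Ibsp, Dmp1, Dspp and Mepe, which belong to the family of osteopontin, lay below 50 in all pools. Of the SPARC-related genes, Spock1, Spock2 and Spock3 were not tested. Fstl1, a secreted glycoprotein with a SPARC-like calcium-binding domain, was at 5569.7 and 6098.0 in Cyc pools 1 and 2 and at 3219.1 and 3446.7 in Wt pools 1 and 2. Its groups did not overlap, and the difference was 0.79 in experiment 1 and 0.82 in experiment 2. At a log2 fold change of 0.80 (95% confidence interval 0.21 to 1.40, limma unadjusted p = 0.0183, adjusted p = 1), or 1.75-fold, it missed the 2-fold threshold. Stab1, a scavenger receptor with fasciclin domains, had a log2 fold change of 0.20, and its relative Stab2 was dim.

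**Figure D4:**
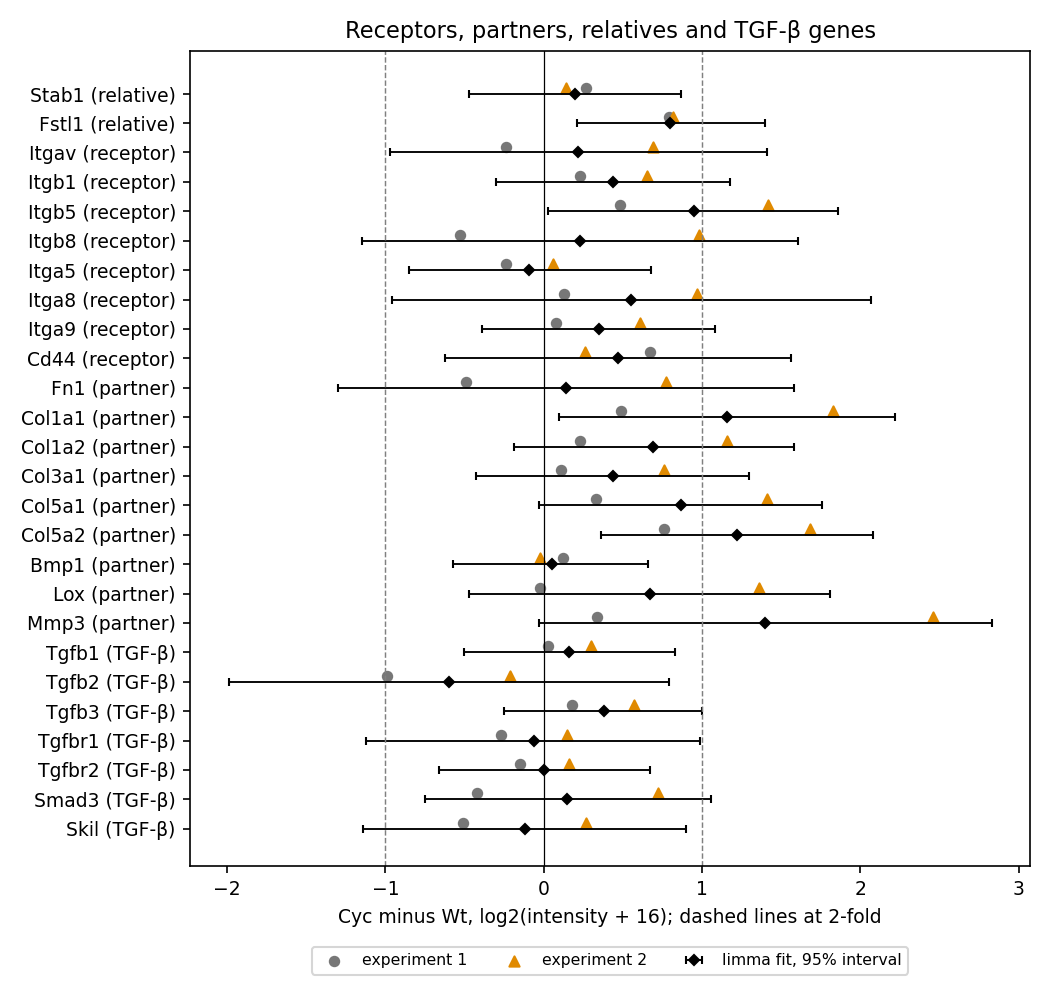
Cyc minus Wt on the log2(intensity + 16) scale for the 26 tested receptors, matrix partners, relatives and TGF-β genes. Black diamonds with bars are limma estimates with 95% confidence intervals, grey circles experiment 1 and orange triangles experiment 2, and dashed lines mark 2-fold. Col1a1 at 1.16 and Col5a2 at 1.22 are the genes past 2-fold with an interval above 0, and the interval of Mmp3 reaches below 0.

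Genes were then ranked by the likeness of their profile over the 4 arrays to that of Postn, as the Euclidean distance between log2 values centred on their own mean, among 10312 genes. The 5 nearest were Ccn2 at a distance of 0.39, Itgbl1 at 0.43, Mfap4 and Oasl1 at 0.44 and Ifit3 at 0.45. Ccn2, the gene of connective tissue growth factor, was at 6071.5 and 7503.9 in Cyc pools 1 and 2 and at 2388.7 and 1776.2 in Wt pools 1 and 2. Mfap4, a microfibril-associated glycoprotein, was at 279.1 and 375.0 in the Cyc against 55.4 and 65.4 in the Wt pools. Itgbl1 was at 796.4 and 1227.0 in the Cyc against 234.2 and 160.1 in the Wt pools. Oasl1 was at 165.0 and 253.3 against 73.9 and 53.0, and Ifit3 at 511.6 and 1250.0 against 236.0 and 158.2. The nearest to Tgfbi, at 1456250_x_at, were Rsph9 at 0.07, Ctsk at 0.08, Kdelr3 at 0.19, Ddit4 at 0.21 and Cryab at 0.23. Rsph9 was dim, at 57.3 and 72.2 in the Cyc against 45.4 and 14.5 in the Wt pools, so its likeness is limited by background. Ctsk, the collagen-cleaving protease cathepsin K, was at 288.5 and 351.9 in the Cyc against 211.4 and 106.4 in the Wt pools. With 4 arrays such likeness is a description of these pools.

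Markers of other cells differed between pools, and some did so in the order of member genes. Summed over 5 airway epithelial markers, intensities were 179 and 15964 in Cyc pools 1 and 2 and 2513 and 46 in Wt pools 1 and 2. Scgb1a1 and Scgb3a2, which encode secretoglobins of club cells, were the 2 markers tested and did not pass, and Foxj1 and Sftpa1 lay below 50 throughout. Mesothelial markers summed to 601 and 2111 in Cyc and to 1193 and 670 in Wt pools, with all 5 tested and none called. Macrophage markers summed to 358 and 1074 in Cyc and to 396 and 198 in Wt pools, with 3 of 7 tested and none called, and C1qa was below 0 in 3 pools. Tnc and Smoc2 at 1415935_at followed the order of the airway and macrophage sums, with Cyc pool 2 highest, then Wt pool 1, Cyc pool 1 and Wt pool 2. Smoc2 at 1431362_a_at did not, with its highest value in Wt pool 1, at 197.0 against 144.1 in Cyc pool 2. The share of all tested probe sets in this order was not counted. The part of these cells in the differences of Tnc and Smoc2 was not tested.

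Of the mesenchymal lists, fibroblast markers summed to 19093 and 20313 in Cyc pools and to 22314 and 14569 in Wt pools. Col1a1 alone passed of 6 tested. Tcf21 also had both Cyc pools above both Wt pools, at 1528.8 and 1550.4 against 1321.2 and 726.5, with a log2 fold change of 0.64, and Dcn, Lum, Pdgfra and Ddr2 overlapped between groups. Wt pool 2 was thus lowest in the fibroblast sum, as in 11 member probe sets, and at Dcn, Lum, Tcf21 and Col1a1. Pdgfra and Ddr2 were instead lowest in Cyc pool 1, at 1160.0 and 247.1 against 1414.4 and 333.2 in Wt pool 2. Dcn was the brightest of the fibroblast markers and weighs most in the sum. The Cyc and Wt sums of fibroblast markers overlapped. Pericyte markers summed to 8507 and 13745 in Cyc and to 7108 and 9018 in Wt pools, and 2 of 5, Abcc9 and Kcnj8, were called higher. Smooth muscle markers summed to 5504 and 11966 in Cyc and to 4517 and 7200 in Wt pools, with 4 of 5 tested, none called and Cnn1 near or below 0. Cartilage and tendon markers summed to 803 and 1164 in Cyc and to 357 and 271 in Wt pools, without overlap as for Postn. Comp and Cilp of this list were called higher, while Chad, Acan, Scx and Tnmd lay below 50 in all pools. The part of fibroblasts, pericytes, macrophages and cells of the cartilage and tendon list in the higher Postn and Tgfbi intensities was not tested.

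Endothelial markers summed to 23583 and 25077 in Cyc and to 26708 and 27625 in Wt pools, with none of 5 called. Cardiomyocyte markers summed to 2133 and 1352 in Cyc and to 3182 and 1860 in Wt pools, and Mb and Myl2 were called lower of 6 tested. Schwann cell markers, 72 and 166 in Cyc against 61 and 60 in Wt pools, had both Cyc sums above both Wt sums, and none of the 3 genes with a probe set was bright enough to be tested. Lymphocyte markers summed to 92 and 214 in Cyc and to 66 and 96 in Wt pools, with 1 of 4 tested and none called.

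**Figure D5:**
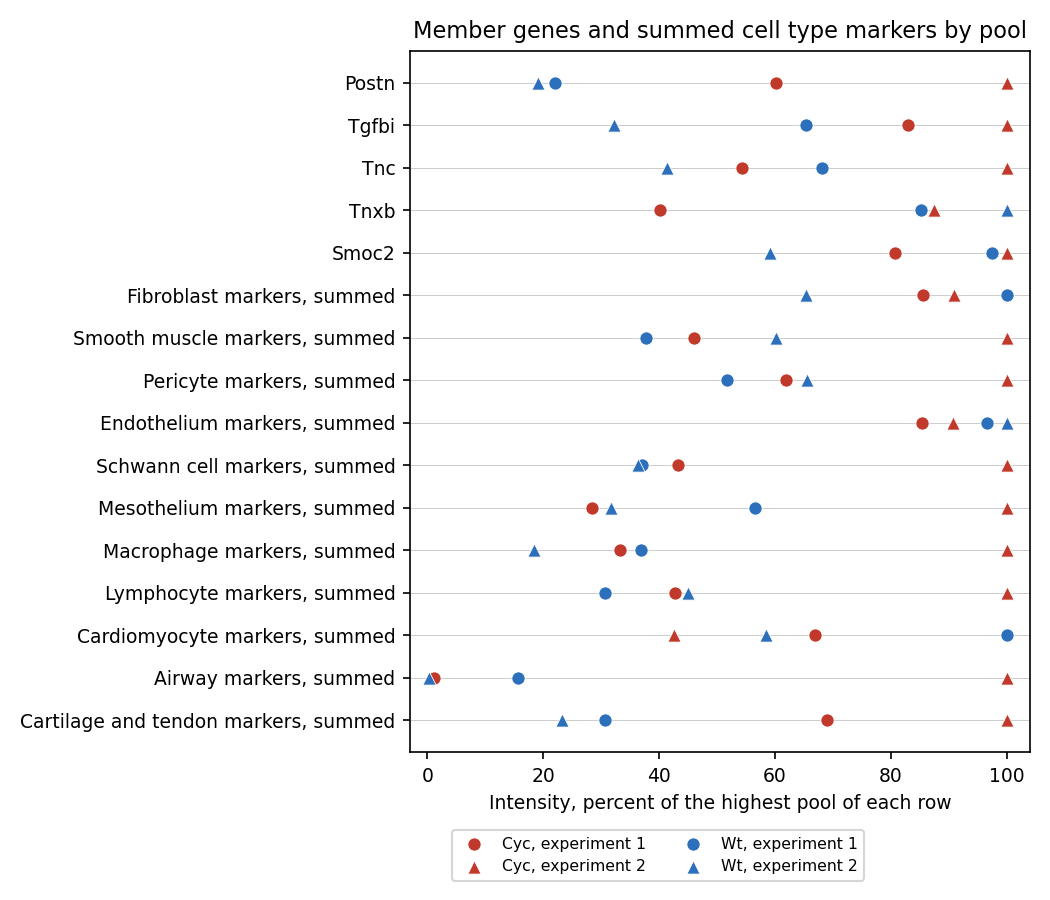
Intensity in each pool as a percentage of the highest pool of the same row, for 5 member genes at their probe set of highest mean intensity and for the summed markers of 11 cell types. Red marks Cyc and blue Wt pools, circles experiment 1 and triangles experiment 2. For Postn the Wt pools lie at 22.1% and 19.1% and Cyc pool 1 at 60.2% of Cyc pool 2. Both Cyc pools stand above both Wt pools in the rows of Postn, Tgfbi, the cartilage and tendon markers and the dim Schwann cell markers, both stand below in the row of endothelial markers, and the other rows overlap.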

How the data were processed

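RNA of Sca-1 cells, 250 ng per pool, was labelled for Affymetrix Mouse 430 2.0 arrays. The deposited values are normalized intensities on a linear scale for 45037 probe sets, made by the authors in Resolver 7.2, with background correction and summary method not given in the sources used here. On each array 5784 to 7231 values were negative. Precision is limited by the number of arrays, and p-values cover the variation among these 4 pools only.

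Negative values were raised to 0 and log2(intensity + 16) was taken, which understates changes of dim genes. The 20680 probe sets with 50 or more on at least 2 arrays were fitted with limma 3.58.1 in R 4.3.3 (two-sided, Benjamini-Hochberg adjustment), a procedure tested on simulated data. The methods of the study name 2 independent experiments, and the labels do not tie these to the replicate numbers. Departures from the group mean correlated at 0.447 between arrays of 1 number, and the labelling controls also parted by number, so a fit with the number, read as the experiment, as a block is also given. Symbols came from the platform annotation, that of Ly6a from the supplement of the study.

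Members, gene lists and tests were chosen with earlier results of these data known. All member probe sets are named, and of the lists the called genes and those with the 2 highest mean intensities, others after their values were seen. Alternatives were other pseudocounts, filters and scalings, an intensity trend, the methods' t-test, the block, arithmetic means and leaving out each array. The methods' t-test is the one the study names for pairwise comparisons in general. The study called its array genes by the Resolver error model, which could not be run from the deposited values.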

Additional observations from a re-analysis of the deposited data

How the results depend on the processing

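Postn kept its direction and its call under every alternative with a test. The count of 2 member probe sets called higher fell to 1, Postn alone, with a pseudocount of 1, with a pseudocount of 50, with no filter on dim probe sets and with the methods' t-test, all of which ended the call of Tgfbi at 1415871_at (limma unadjusted p 0.0582 with a pseudocount of 1 and 0.106 with no filter, and a log2 fold change of 0.91 with a pseudocount of 50). Leaving out 1 array gave log2 fold changes from 1.54 to 2.26 at Postn, from 0.59 to 1.54 at Tgfbi 1415871_at and from -1.17 to -0.08 at Tnxb. For the 26 partner and pathway genes the count of 2 called higher became 1 with no filter, 0 with the methods' t-test and 0 to 7 on leaving out 1 array, with 7 without Cyc pool 1, 1 without Cyc pool 2 and 0 without Wt pool 2, while 0 to 1 were called lower. A fit without 1 array leaves a lone pool in a group, which is assumed to vary like the others, and mixes genotype with experiment. With the experiment as a block, 2 member probe sets were called higher and 0 lower, and 3 partner and pathway genes were called higher and 0 lower. Reversals among the member probe sets were those of Smoc2 without Wt pool 2, to -0.12 at 1415935_at and to -0.41 at 1431362_a_at, with 0.59 and 1.10 as the highest values on leaving out 1 array. Of the other values of single probe sets under an alternative, 155 kept direction and side of the thresholds, 6 lost a call and 4 gained one. Quantile and median scaling turned 0 of 48 within-experiment member differences. Changes of dim probe sets, as those of Tnc and Smoc1, are limited by their signal over background. The methods' t-test was not the study's test of its arrays. By that t-test 644 of 20680 probe sets had an unadjusted p under 0.05 and 0 an adjusted p under 0.05. These counts were 412 and 0 in limma and 1443 and 1 in limma with the block. The causes were not tested.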
